A study of Mus musculus with 18 samples.

Results

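The 5 genes described here are the hemoglobin and red blood cell genes Hba-a1, Hba-a2, Hbb-bs, Hbb-bt and Alas2, chosen by name among the 55573 genes of the count table. All 5 were found in the table and all 5 passed the filter on low counts, as did 24862 genes in total. Values are given as CPM, counts scaled to a fixed library size. The question was how much of this red blood cell RNA each sample held, and whether it differed between the groups.

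RNA-Seq was performed on the spinal dorsal horn (DHSC) ipsilateral to the injection in young adult C57Bl/6 mice, dissected 2H after injection of 2% formalin into a hind paw. The 18 samples comprised 6 F1/proestrus females, 6 F2/metestrus females and 6 males. F1 and F2 are the study's names for females with a short and a long quiescent interphase between the phases of formalin-evoked pain behavior, here sampled in proestrus and in metestrus. All groups received formalin and shared the ketamine/xylazine anesthesia, so no comparison with naive tissue is possible. The methods describe rapid extraction of the lumbar segments for RNA and mention no perfusion for these samples, so RNA of blood left in vessels could be part of each library. Replicates 1 to 3 and replicates 4 to 6 of each group carry library numbers from 2 separate blocks, 27 to 35 and 188 to 196, called here the first and the second library series, and what separates the blocks is not given in the sources used here. Each series holds 3 samples of each group.

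Adult mouse hemoglobin is a tetramer of 2 alpha and 2 beta chains, each holding a haem group. Mature red blood cells have no nucleus, and the transcripts they still carry after leaving the bone marrow, mostly those of globins, are a common measure of blood in dissected tissue. Alas2 encodes the erythroid form of 5-aminolevulinate synthase, which makes the first product of haem synthesis, while its relative Alas1 serves other cells. Globin transcripts have also been described in neurons and glia, so that a low globin level need not come from blood alone.

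The promoters of the 5 genes are shown as a description of their sequence. Any relation between the promoters and the levels measured here was not tested. The sequences come from RefSeq (build GRCm38.p6), run 5′ to 3′ on the strand of the gene from 250 bases before to 50 bases after the RefSeq start site, and matched for 5 of 5 genes. Capitals mark 4 short motifs searched on both strands, each shown in the orientation found. These are the GATA motif AGATAA or TGATAA, the CACCC motif ACACCC, the CCAAT motif and the TATA motif TATAA. Adjacent motifs can overlap. Hba-a1 lies on chr11:32283422-32283721 (+), Hba-a2 on chr11:32296242-32296541 (+), Hbb-bs on chr7:103827879-103828178 (-), Hbb-bt on chr7:103813874-103814173 (-) and Alas2 on chrX:150547167-150547466 (+).
Hba-a1: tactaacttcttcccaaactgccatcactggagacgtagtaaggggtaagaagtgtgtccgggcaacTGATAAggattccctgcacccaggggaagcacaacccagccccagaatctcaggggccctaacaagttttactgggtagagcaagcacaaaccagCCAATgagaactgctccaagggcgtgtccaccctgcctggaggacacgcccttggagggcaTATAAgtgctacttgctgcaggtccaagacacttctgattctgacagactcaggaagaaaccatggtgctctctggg
Hba-a2: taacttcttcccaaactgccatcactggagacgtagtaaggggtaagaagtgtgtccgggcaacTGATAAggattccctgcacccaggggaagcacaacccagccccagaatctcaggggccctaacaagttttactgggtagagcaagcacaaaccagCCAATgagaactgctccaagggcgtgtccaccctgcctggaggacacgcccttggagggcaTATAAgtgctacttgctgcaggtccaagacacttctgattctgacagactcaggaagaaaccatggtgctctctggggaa
Hbb-bs: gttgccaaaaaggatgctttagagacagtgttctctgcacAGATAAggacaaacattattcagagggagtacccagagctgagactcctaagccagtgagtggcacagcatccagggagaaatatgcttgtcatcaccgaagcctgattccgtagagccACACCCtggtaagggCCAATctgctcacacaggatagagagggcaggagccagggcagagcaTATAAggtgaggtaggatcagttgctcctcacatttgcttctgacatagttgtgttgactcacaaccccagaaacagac
Hbb-bt: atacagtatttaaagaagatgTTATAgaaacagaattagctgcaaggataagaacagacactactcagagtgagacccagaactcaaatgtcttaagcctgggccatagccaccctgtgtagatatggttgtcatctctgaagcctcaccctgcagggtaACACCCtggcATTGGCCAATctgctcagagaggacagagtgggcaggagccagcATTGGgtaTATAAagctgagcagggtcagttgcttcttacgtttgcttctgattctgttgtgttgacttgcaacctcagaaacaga
Alas2: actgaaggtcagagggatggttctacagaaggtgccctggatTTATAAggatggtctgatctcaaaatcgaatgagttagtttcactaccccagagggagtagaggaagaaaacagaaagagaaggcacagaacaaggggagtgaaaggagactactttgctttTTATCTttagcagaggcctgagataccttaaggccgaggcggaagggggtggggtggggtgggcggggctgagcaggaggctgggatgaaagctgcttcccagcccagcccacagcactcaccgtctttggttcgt

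The windows of the alpha genes Hba-a1 and Hba-a2 differed in no aligned base and only by an offset of their start sites, which gave 98.0% identity. The windows of the beta genes Hbb-bs and Hbb-bt were 72.7% identical. The GATA motif was found in 4 of 5 windows and in 18.6% of the 32851 mouse promoters of the same length. ACACCC was found in both beta gene windows and in 16.0% of all promoters. CCAAT was found in the 4 globin windows, against 37.4% of all promoters, and TATAA in 5 of 5, against 24.9%. Counted from the start site, TATAA began at -30 to -27 in the 4 globin windows, with a further match at -229 in Hbb-bt. In the Alas2 window the matches began at -208 and -207. All 4 motifs together were found in 1 of the 5 windows, that of Hbb-bs, and in 0.374% of all promoters. A match only describes the letters of the window. The Hbb-bt window held neither AGATAA nor TGATAA, although it held the shorter GATAA, and the longer words were not sought outside it.

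In the GENCODE annotation of GRCm38, Hba-a1 (ENSMUSG00000069919) spans chr11:32283511-32284465 and Hba-a2 (ENSMUSG00000069917) chr11:32296489-32297298, both with 3 exons on the plus strand. Hbb-bs (ENSMUSG00000052305) spans chr7:103826534-103828096 and Hbb-bt (ENSMUSG00000073940) chr7:103812524-103813996, both with 3 exons on the minus strand. Alas2 (ENSMUSG00000025270) spans chrX:150547375-150570638 on the plus strand, with 11 exons, and overlaps Apex2 and Mir3620 on the opposite strand. The pairs of globin genes are near-copies. The coding sequences of Hba-a1 and Hba-a2 differed at 1 of 426 bases, and those of Hbb-bs and Hbb-bt at 1 of 441 bases. Of all windows of 50 bases along the transcript, 67.5% of those of Hba-a1 also occurred in Hba-a2 and 86.9% of those of Hba-a2 in Hba-a1. The share was 65.8% for Hbb-bs and 58.3% for Hbb-bt. Reads from shared windows cannot be placed on 1 gene of a pair and uniquely mapped reads were counted, so the level of each globin gene is uncertain and its split from its partner more so. For Alas2, 13.8% of windows lay on a sequence shared with Apex2 or Mir3620, and the strand setting of the counting is not given in the sources used here.

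The libraries held 73590509 to 125724156 counted reads, so that the limit that a count of 0 allows (3 counts) was 0.0240 to 0.0407 CPM. Xist was at 8.75 to 17.7 CPM in the females and at 0.016 to 0.10 CPM in the males, and the Y-linked Ddx3y at 63.5 to 83.5 CPM in the males and at most 0.064 CPM in the females, as the labels of sex require. The study gives its sample numbers as numbers of animals, so the samples of a group were taken as separate mice, although the labels do not name the animals.

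The members were detected in every sample, far above that limit. Hbb-bs, an adult beta chain, gave 2013 to 10292 reads per sample. Hba-a1 gave 1633 to 8095 reads and Hba-a2, the other adult alpha gene, 1113 to 5118 reads. Hbb-bt, the second adult beta gene, gave 630 to 2589 reads and Alas2 gave 172 to 1315 reads. Together the 4 globin genes made up 0.00490% to 0.0353% of all counted reads. Levels per length of exon, in CPM per kb, averaged 76.6 ± 35 for Hbb-bs, 58.3 ± 27.5 for Hba-a1, 46.4 ± 20.9 for Hba-a2, 21.7 ± 9.48 for Hbb-bt and 2.81 ± 1.52 for Alas2 (SD, n = 18). The order Hbb-bs, Hba-a1, Hba-a2, Hbb-bt, Alas2 held within each of the 18 samples, although the ranges of neighbouring genes overlapped across samples. The per-length levels carry the uncertainty of the shared windows.

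The spread between samples was the main feature of these genes. The range was widest among the 6 males, but a difference in spread between groups was not tested. Hbb-bs was at 52.1, 58.9 and 73.8 CPM in F1/proestrus females (lowest, median and highest of 6), at 39.5, 57.5 and 88.4 CPM in F2/metestrus females and at 17.9, 41.9 and 139.6 CPM in males. The 12 females thus lay inside the range of the 6 males. Males 1 to 6 were at 34.9, 66.7, 48.9, 139.6, 22.4 and 17.9 CPM of Hbb-bs. Male 4 was the highest and males 5 and 6 were the lowest of the 18 samples in all 5 genes, and these 3 samples belong to the same library series. The highest male was 7.81 times the lowest for Hbb-bs, against 1.42 times in F1/proestrus and 2.24 times in F2/metestrus. Without male 4 it was 3.73 times among the other 5 males. Over the 9 samples of the first library series the highest was 1.91 times the lowest for Hbb-bs, against 7.81 times in the second.

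The other members followed much the same order of samples. Hba-a1 was at 37.8, 48.5 and 60.7 CPM in F1/proestrus (lowest, median and highest), at 35.2, 41.8 and 84.8 CPM in F2/metestrus and at 15.8, 33.0 and 109.8 CPM in males. Hba-a2 was at 25.1, 29.4 and 39.7 CPM in F1/proestrus, at 23.1, 28.7 and 56.3 CPM in F2/metestrus and at 9.80, 22.6 and 68.2 CPM in males. The alpha genes therefore had the same wide range in males as Hbb-bs, with the groups overlapping. Hbb-bt was at 13.1, 15 and 19.6 CPM in F1/proestrus, at 10.3, 14.5 and 23.6 CPM in F2/metestrus and at 5.31, 10.6 and 35.1 CPM in males. Alas2 was at 5.29, 6.54 and 9.40 CPM in F1/proestrus, at 4.79, 6.09 and 11.8 CPM in F2/metestrus and at 1.90, 4.62 and 17.8 CPM in males. The widest range of the 5 genes within males was that of Alas2, whose highest male was 9.41 times the lowest, and 4.18 times without male 4. F2/metestrus 4 was the second highest sample in every member.

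**Figure D1:**
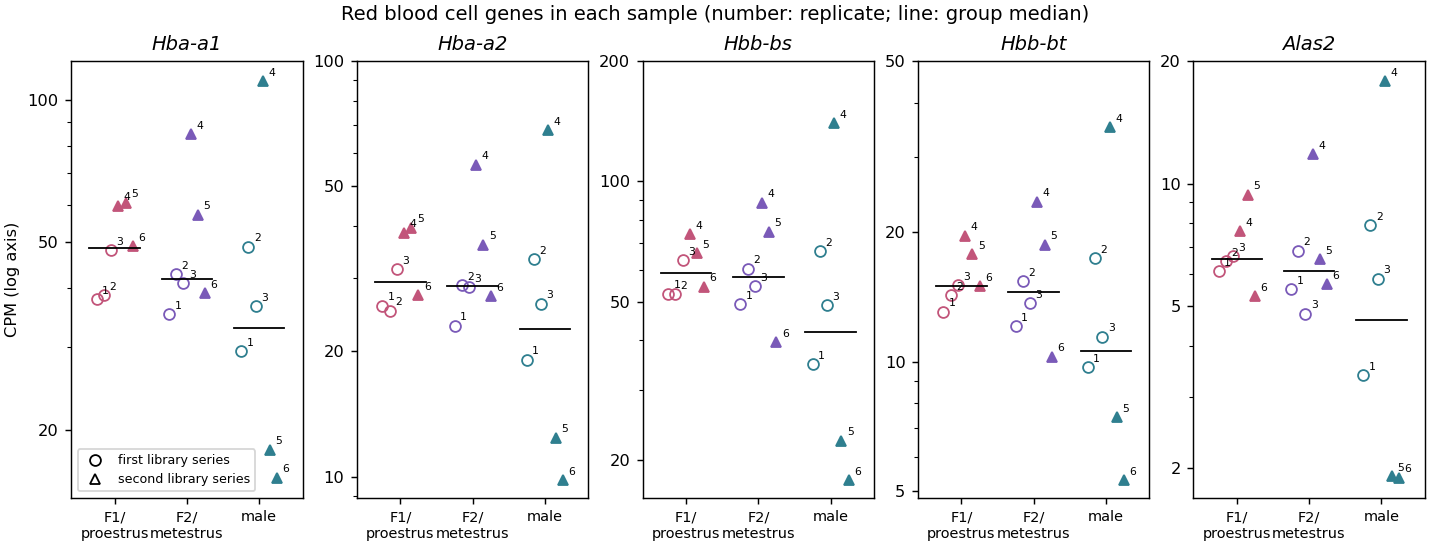
CPM (log axis, 1 panel per gene) of the 5 genes in each sample, by group, with the replicate number beside each point, the library series by symbol and the group median as a line. Male 4 lies at the top and males 5 and 6 at the bottom of every panel, while the F1/proestrus samples lie close together, between 52.1 and 73.8 CPM for Hbb-bs.

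Among males, the standard deviation of log2 CPM was 1.02 for Hba-a1, 1.01 for Hba-a2, 1.09 for Hbb-bs, 0.96 for Hbb-bt and 1.26 for Alas2 (n = 6). Between 97.2% and 99.1% of the 24862 genes tested had a smaller spread among males than the respective member. In F1/proestrus the standard deviation was 0.21 to 0.29 and in F2/metestrus 0.42 to 0.47, where 52.7% to 67.5% and 79.9% to 83.2% of genes had a smaller one. Among genes within 2-fold of a member's mean level, 99.8% to 99.9% had a smaller spread among males, 97.6% to 99.6% had one in F2/metestrus and 78.6% to 95.6% in F1/proestrus. The spread of these genes was thus high for their level in F2/metestrus females too. Counting error was small beside this, at most 7.74% for the sum of the globins over Alas2, the member with the fewest reads. The difference in spread between the groups was not tested. In bulk samples, fewer red blood cells and less RNA per cell cannot be told apart.

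The comparison of F2/metestrus with F1/proestrus asked whether the female groups, which differ in pain behavior and estrous stage, differed in these genes. None of the 5 genes passed the test (edgeR quasi-likelihood test, Benjamini-Hochberg adjusted p = 1.0 for each), where 0 of 24042 genes (0%) passed. Before adjustment, 596 genes had p under 0.05 and no member was among them, and DESeq2 called 2 genes. The log2 fold change was 0.03 (SE 0.19) for Hba-a1, 0.09 (SE 0.19) for Hba-a2, 0.02 (SE 0.16) for Hbb-bs, -0.02 (SE 0.17) for Hbb-bt and -0.02 (SE 0.20) for Alas2. The 95% intervals reached from -0.43 to 0.49 over the 5 genes. The median of the 5 fold changes was 0.02 on the log2 scale, beside 0.00 over all genes tested. Without F2/metestrus 4, the values of all 5 fell below 0, from -0.24 for Alas2 to -0.12 for Hbb-bs, and none was called.

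The comparison of males with females asked whether the sexes differed in the amount of red blood cell RNA. None of the 5 genes passed the test, where 49 of 24862 genes (0.197%) did. The log2 fold change was -0.20 (SE 0.30, adjusted p = 0.843, edgeR) for Hba-a1 and -0.20 (SE 0.29, adjusted p = 0.837) for Hba-a2. It was -0.14 (SE 0.30, adjusted p = 0.893, edgeR) for Hbb-bs, -0.13 (SE 0.28, adjusted p = 0.896) for Hbb-bt and -0.10 (SE 0.34, adjusted p = 0.937) for Alas2. The 95% intervals spanned -0.82 to 0.62 over the 5 genes. The median of the 5 values was -0.14, beside 0.00 over all genes tested. Male 4 decided the size of these values. Without male 4 the fold changes were -0.74 for Hba-a1, -0.69 for Hba-a2, -0.68 for Hbb-bs, -0.62 for Hbb-bt and -0.72 for Alas2, with adjusted p-values of 0.340 to 0.456 in the edgeR fit. Without male 6 they were between -0.04 and 0.08, and without male 5 between -0.07 and 0.07. In samples of the first library series the values were -0.16 to -0.07, in those of the second -0.32 to -0.11, and the difference between the series was called for none of the 5.

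The library series was compared because it splits each group evenly. None of the 5 genes passed the test between the second and the first series over 18 samples, where 27.0% of all genes tested did (6709 of 24862). The log2 fold change was 0.46 (SE 0.27, adjusted p = 0.230, edgeR) for Hba-a1, 0.37 (SE 0.27, adjusted p = 0.332) for Hba-a2 and 0.26 (SE 0.28, adjusted p = 0.552) for Hbb-bs. It was 0.32 (SE 0.26, adjusted p = 0.395, edgeR) for Hbb-bt and 0.34 (SE 0.32, adjusted p = 0.481) for Alas2. The median of the 5 was 0.34, beside 0.00 over all genes. Among the 12 females alone both alpha genes were higher in the second series, Hba-a1 by 0.52 (adjusted p = 0.0215, edgeR) and Hba-a2 by 0.46 (adjusted p = 0.0486), where 16.4% of genes tested were called in either direction and 7.86% were called higher. In the same fit the beta genes and Alas2 had 0.25 to 0.35 with adjusted p-values of 0.155 to 0.262. Over 18 samples without male 4, Hbb-bs was at -0.16, Hbb-bt at -0.03 and Alas2 at -0.13, and the alpha genes were at 0.08 and 0.02, none of them called.

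**Figure D2:**
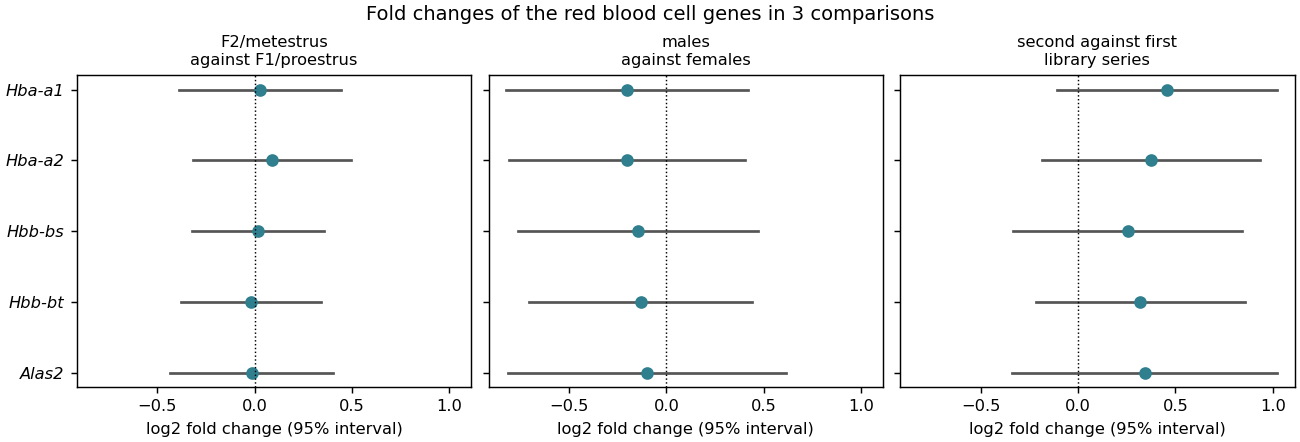
Log2 fold change (point) and 95% interval (line) of each of the 5 genes in the comparisons of F2/metestrus with F1/proestrus, males with females and the second with the first library series. Every interval crosses 0, and those of the sex comparison are wider than those between the female groups.

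The 5 genes moved together from sample to sample. Over the 18 samples, the correlation of log2 CPM between pairs of the 5 genes ranged from r = 0.946 (Hbb-bt and Alas2) to r = 0.992 (Hba-a1 and Hba-a2), with Spearman's rho of 0.845 to 0.983 (10 pairs; for r the adjusted p was 1e-05 in each pair, the smallest that 100000 resamples of the permutation test can give, and for rho at most 4e-05). Hbb-bs and Hba-a1, which do not share sequence windows of 50 bases and lie on different chromosomes, had r = 0.975 and rho = 0.938. Hbb-bs and Alas2 had r = 0.961 and rho = 0.876. Without male 4 and male 6, the samples farthest from the median, r was 0.890 to 0.987. In the first series r was 0.815 to 0.981, and in the second 0.957 to 0.996. Among the 12 females, where the range was narrow, r was 0.752 for Hbb-bs and Alas2 and up to 0.979 for Hbb-bs and Hbb-bt. In males the 6 samples had the same rank order in all 5 genes.

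**Figure D3:**
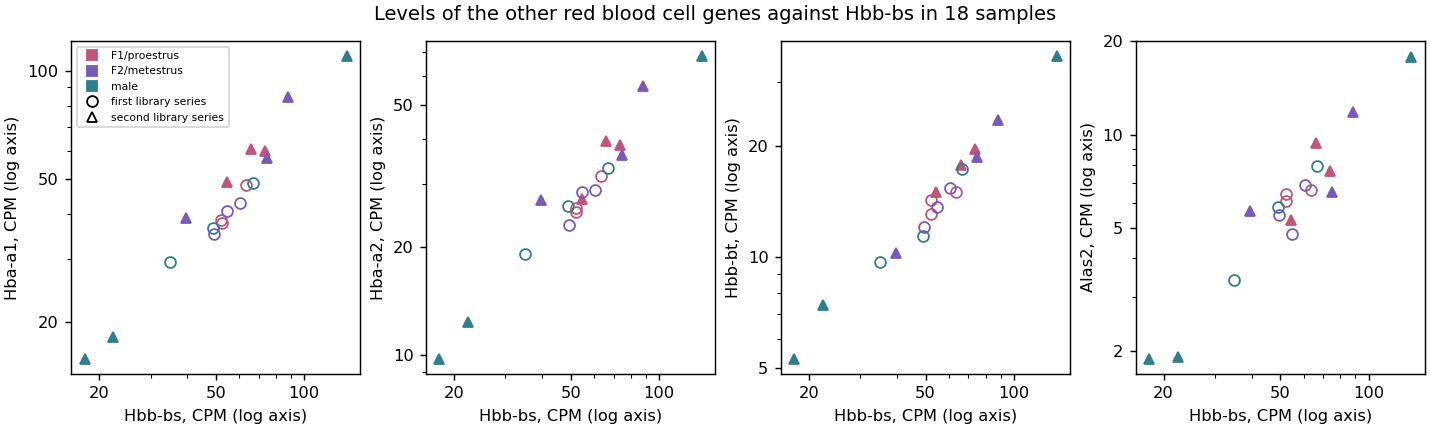
CPM of Hba-a1, Hba-a2, Hbb-bt and Alas2 against CPM of Hbb-bs in the 18 samples (log axes), with groups by color and library series by symbol. The points of each panel lie along 1 line from male 6 to male 4, with r between 0.961 and 0.988.

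Over the 18 samples, ratios between the genes changed far less than the levels. The ratio of Hba-a1 to Hba-a2 was 1.53 ± 0.0901 (SD, n = 18) and ranged from 1.4 to 1.80, while the counting error of a single ratio was 1.80% to 3.89%. The ratio of Hbb-bs to Hbb-bt was 3.81 ± 0.302 and ranged from 3.01 to 4.28, with a counting error of 2.20% to 4.54%. The lowest values were 3.01 in male 5 and 3.37 in male 6, the samples with the least globin RNA. The next lowest was 3.60 in male 1. The summed alpha genes over the summed beta genes gave 1.06 ± 0.107, with 0.996 ± 0.0477 in the first library series and 1.12 ± 0.117 in the second (SD, n = 9 each). The highest were 1.33 in F2/metestrus 6 and 1.26 in F2/metestrus 4, and the series overlapped. The sum of the 4 globins over Alas2 was 23.7 ± 3.73 and ranged from 19.6 to 31.6, over samples whose globin sum ranged from 48.8 to 352.7 CPM. Its counting error was 2.83% to 7.74%, set mostly by Alas2. Differences in these ratios between groups or series were not tested.

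**Figure D4:**
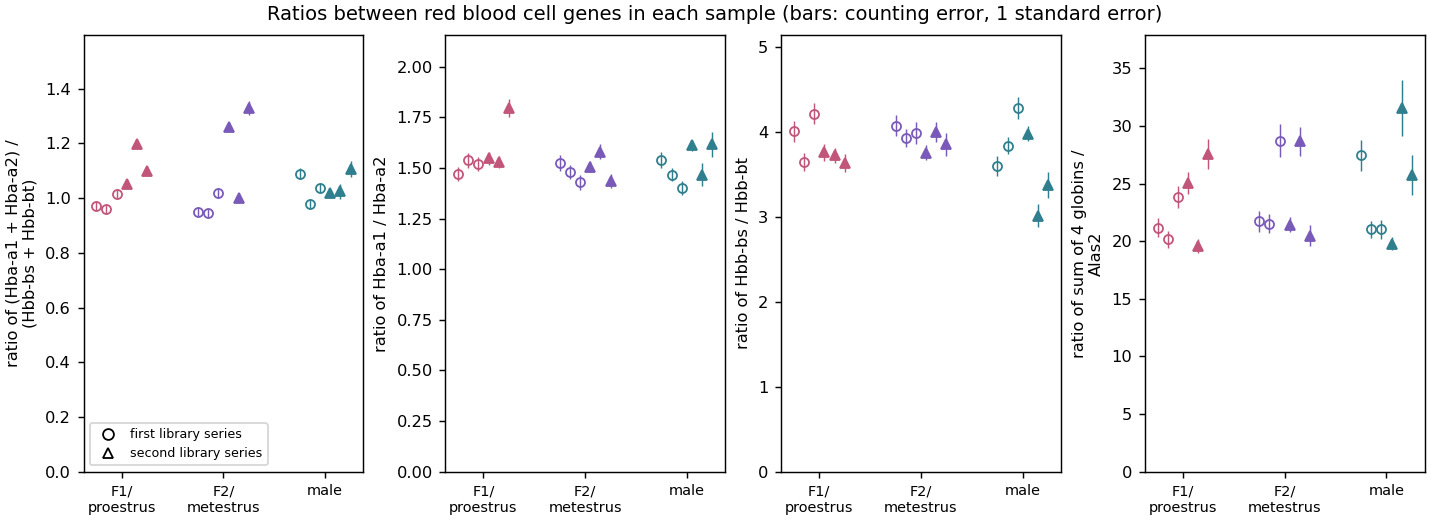
Ratios between the 5 genes in each sample, by group, with library series by symbol and bars of 1 standard error from counting alone. The Hba-a1 to Hba-a2 ratio stays between 1.4 and 1.80 in samples whose globin sum spans 48.8 to 352.7 CPM, and the Hbb-bs to Hbb-bt ratio is lowest in males 5 and 6.

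Other genes of the red blood cell lineage were measured at low levels. Of the 16 genes of the list, 9 passed the filter on low counts over 18 samples and 8 in the females. Ahsp, the chaperone of alpha globin, was not matched in the table. The highest means were those of Epor, the erythropoietin receptor, at 3.53 CPM, Rhd, a Rhesus blood group protein, at 0.763 CPM, and Slc4a1, the anion exchanger of the red cell membrane, at 0.466 CPM. Gata1, Rhag, Kel, Car1, Hemgn and Cldn13 were below the filter, at 0.0664 CPM or less on average. None of the tested genes was called between the female groups, the sexes or the library series, at the shares of called genes given above. The median log2 fold change of the list was -0.11 between the female groups, 0.34 in males against females and -0.04 between the series. The mean centred log2 CPM of the list did not pass the test against Hbb-bs (r = 0.180, adjusted p = 0.552 over 15 lists, permutation test, n = 18, rho = -0.00929), with r = -0.341 within the first series and r = 0.364 within the second.

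The other globins had no common pattern. The embryonic globins Hbb-y, Hba-x, Hbb-bh1 and Hbb-bh2 had at most 6, 2, 1 and 4 reads in any sample. Cygb, a globin of fibroblast-like and other cells, was at 56.9 CPM and Ngb, the neuronal globin, at 22.7 CPM, so Cygb was measured at a CPM close to that of Hbb-bs. Cygb ranged from 45.6 to 70.4 CPM and Ngb from 18.4 to 31.9 CPM, a narrower range than that of the members. Mb, the muscle globin myoglobin, had a wide one, from 0.230 to 2.54 CPM, and a rho of 0.0671 with Hbb-bs over the 18 samples. Of the 5 globins of this list that were tested, 0 were called between the female groups or the sexes. Between the library series Cygb (0.35, adjusted p = 1.7e-05, edgeR) and Ngb (0.24, adjusted p = 0.0333) were higher in the second. Their list did not pass the test against Hbb-bs (r = -0.0223, rho = 0.0464, adjusted p = 0.930 for r, permutation test, n = 18).

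Genes of haem synthesis and of hemoglobin and iron handling were measured at higher levels than Alas2 in several cases. The 11 genes of haem synthesis tested included Fech, the enzyme that inserts iron, at 108.9 CPM (98.3 to 120.3 CPM), Cpox at 85.8 CPM and Alas1 at 81.4 CPM. None was called between the female groups or the sexes, and 4 were higher and 1 lower in the second library series, where 14.0% of all genes were higher and 13.0% lower. The 4 were Alad, Urod, Cpox and Slc25a38, and the 1 was Slc25a37, the mitochondrial iron importer, at -0.17 (adjusted p = 0.0474, edgeR). Of the 14 genes that bind or degrade hemoglobin and haem or handle iron, 0 were called between the female groups or the sexes. In the second series 5 of them were higher and 3 were lower, with the ferritin light chain Ftl1 at 0.52 (adjusted p = 8e-06, edgeR) and the iron exporter Slc40a1 at -0.29 (adjusted p = 0.0011). The others that were higher were Fth1, Hmox2, Blvrb and Slc48a1, at 0.13 to 0.28, and the others that were lower were Lrp1 and Slc11a2, at -0.31 and -0.13. Hmox1, which degrades haem, was at 0.01 (SE 0.11, adjusted p = 0.977, edgeR) in males against females. Neither list passed the test against Hbb-bs, with r = 0.244 (adjusted p = 0.539, rho = 0.261) for haem synthesis and r = -0.297 (adjusted p = 0.50, rho = -0.212) for haem and iron handling (permutation test, n = 18).

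Scores of 15 lists of other genes were set against Hbb-bs to see which cell markers moved with it. A score is the mean centred log2 CPM of the tested genes of a list. The endothelial list of 12 vessel genes was the 1 list that passed for r (r = 0.723, adjusted p = 0.0143, permutation test, n = 18), while its rho was 0.377 (adjusted p = 0.709). The relation rested on a few males. Without male 4 and male 6 r was 0.477 (adjusted p = 0.347), among the 12 females it was -0.123 (adjusted p = 0.903), and among the 6 males it was 0.963 (adjusted p = 0.0625, exact permutation test). In the first series it was 0.550 and in the second 0.923 (adjusted p = 0.50 and 0.00794, exact permutation test). Slc2a1, the glucose transporter of the blood-brain barrier, had rho = 0.744 with Hbb-bs over 18 samples, whereas Flt1 had 0.243 and Slco1a4 0.0258. No endothelial gene was called between the sexes. A part of vessel content in the levels of the 5 genes was not tested.

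None of the lists of other blood cells passed the test against Hbb-bs. The platelet list had r = -0.189 (adjusted p = 0.552, rho = -0.0919) and the lymphocyte list r = -0.0607 (adjusted p = 0.873, rho = 0.172) by permutation test over 18 samples. The neutrophil list had r = -0.433 (adjusted p = 0.275, rho = -0.383, permutation test, n = 18), with -0.0575 among females and -0.588 among males. The lists of neurons, dorsal horn neurons, astrocytes, oligodendrocytes, microglia, Schwann cells and meningeal fibroblasts had r between -0.429 and 0.531, with adjusted p-values of 0.194 to 0.539 (permutation test, n = 18).

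**Figure D5:**
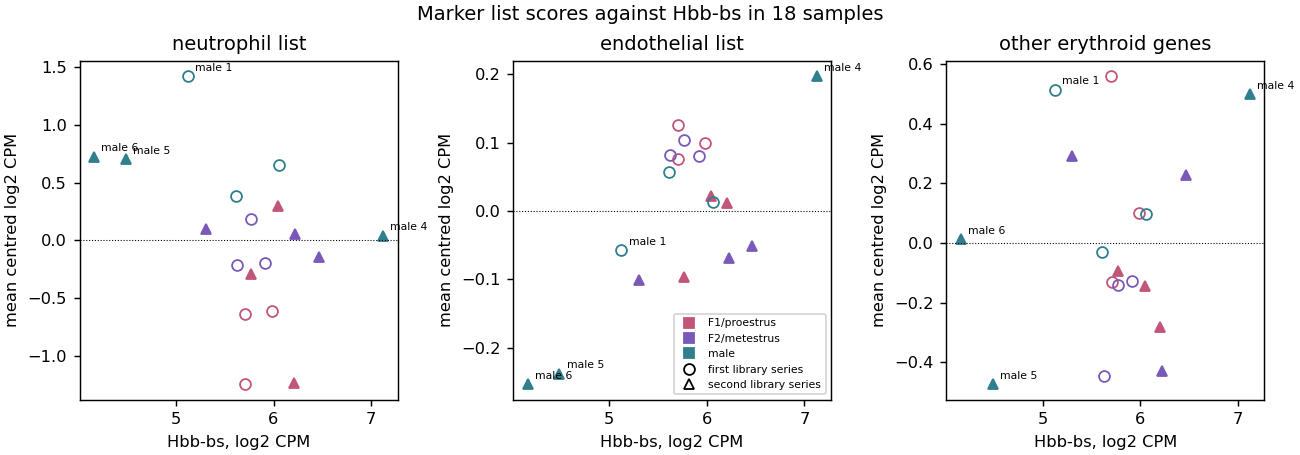
Mean centred log2 CPM of the neutrophil, endothelial and other erythroid lists against log2 CPM of Hbb-bs in the 18 samples, with groups by color and library series by symbol. Male 1 has the highest neutrophil score at low Hbb-bs, males 5 and 6 have the lowest endothelial scores, and the erythroid list has r = 0.180.

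Neutrophil genes were examined with the globins because neutrophils travel in blood and because the study named Lcn2 and Mpo among genes that differ by sex. Its RT-qPCR found Lcn2 raised over naive tissue in males and not in females. By flow cytometry it reported a raised share of LCN2-positive immune cells, mostly neutrophils, in male pia mater after formalin. Those cells were measured by protein in the meninges, not by RNA of the dorsal horn. Mpo, the myeloperoxidase of neutrophil granules, was at 0.144, 0.316 and 0.587 CPM in females (lowest, median and highest of 12) and at 0.456, 0.80 and 1.56 CPM in males. Lcn2, an acute phase protein of neutrophils and other cells, was at 1.86, 2.35 and 4.39 CPM in females and at 2.61, 8.98 and 17.7 CPM in males. S100a8, a calprotectin subunit of neutrophils, was at 0.382, 1.0 and 1.83 CPM in females and at 0.665, 2.01 and 4.99 CPM in males. All 3 genes overlapped between the sexes. The males did not have the same order in these genes as in the globins. Male 4, with the most globin RNA (352.7 CPM), had the least S100a8 of the males (0.665 CPM). Male 1 had the most S100a8 (4.99 CPM) and Mpo (1.56 CPM) at a globin sum of 93.1 CPM. Lcn2 was 14.7 CPM in male 4, 17.7 CPM in male 5 and 2.61 CPM in male 6, although males 5 and 6 had similarly little globin RNA, 60.4 and 48.8 CPM.

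Of the 14 neutrophil genes tested, 2 were higher in males than in females and 0 were lower, with 0.197% of all genes called. They were Mpo (1.37, SE 0.25, adjusted p = 0.0161, edgeR) and Lcn2 (1.97, SE 0.25, adjusted p = 3e-04), and the study named both on these samples. The median log2 fold change of the 14 was 1.16. Single markers of 2 other cell lists were also higher in males. Ncmap, 1 of 6 Schwann cell genes, was at 0.67 (SE 0.11, adjusted p = 0.00654, edgeR), with a list median of 0.64, and Penk, 1 of 8 dorsal horn genes, was at 0.63 (SE 0.085, adjusted p = 4.49e-04), with a list median of 0.22. Their part in the result for the neutrophil genes was not tested. With log2 CPM of Hbb-bs as a covariate the same 2 genes were called, where 0.165% of all genes were (41 of 24862). Mpo was then at 1.36 (adjusted p = 0.0481, edgeR) and Lcn2 at 2.11 (adjusted p = 1.99e-04), and the median of the list was 0.85. S100a8 went from 1.15 without to 0.78 with the covariate, and S100a9, its partner, from 1.4 to 1.14, none of them called. Over the 18 samples S100a8 had rho = -0.360 and S100a9 rho = -0.267 with Hbb-bs, so neither rose with it. The list was not uniform in this. Of its genes with the highest means, Mmp9 (14.8 CPM) had rho = 0.618, Lcn2 0.0815 and Csf3r -0.181. Mmp9 was at -0.17 (SE 0.11, adjusted p = 0.632, edgeR) in males against females. Hbb-bs itself was at -0.14 in males against females in the edgeR fit, which is not the scale of the covariate. The covariate, log2 CPM of Hbb-bs, was at 5.124, 6.061, 5.612, 7.126, 4.487 and 4.161 in males 1 to 6. In the females it ranged from 5.305 to 6.466, so males 1, 5 and 6 lay below every female and male 4 above. What lowered the values of S100a8, S100a9 and the list median with the covariate was not tested. The call of Mpo with the covariate was lost in 15 of the 18 fits that left out 1 sample (adjusted p from 0.0555 to 0.263 in those 15), while that of Lcn2 held in 18 of 18 (log2 fold change 1.75 to 2.21). The matching fits without the covariate were not read for Mpo, so a part of the covariate in this loss was not tested.

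Few other genes had the pattern of the globins. Likeness was measured as Spearman's rho, over the 18 samples, with the mean centred log2 CPM of the 4 globin genes. Alas2, which is not part of that mean, had rho = 0.893. Of the 24857 other genes tested, 0 reached a rho of 0.9, 1 reached 0.8 and 21 reached 0.7, while 14 were at -0.7 or below. The 10 most alike were Gm15821 (0.829), Tap2 (0.80), Dpp7 (0.791), Msh5 (0.752), Gm19461 (0.744), Pet117 (0.742), Gm35721 (0.742), Gm833 (0.730), 9530052E02Rik (0.728) and Tmem204 (0.725). Over the 18 samples Alas2 thus stood above every gene that is not one of the 5. The 10 are the extremes of 24857 correlations, and how many would reach such values by chance was not tested. Within the first series their rho ranged from 0.15 (9530052E02Rik) to 0.85 (Gm15821), against 0.817 for Alas2. Within the second it ranged from 0.667 (Msh5) to 0.867, against 0.933 for Alas2. Gm15821 overlaps Tap2 on the opposite strand, so that their reads may not be told apart. The standard deviation of log2 CPM within these 10 genes was 0.12 to 0.54 over the 18 samples, against 0.61 to 0.78 for the 5 red blood cell genes.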

How the data were processed

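RNA-Seq counts were used for 18 ipsilateral DHSC samples (6 F1/proestrus, 6 F2/metestrus, 6 males). The authors deposited raw counts of uniquely mapped reads per gene (GRCm38 exons). The submitters' processing notes name Subread 2.0.3, featureCounts, bcl2fastq 2.20.0.422 and DESeq2 1.3.0. The kit is SMART-Seq per the labels and another in the paper's methods. Read length and strand setting are not given in the sources used here. A second deposited table holds the authors' own comparison and served only for gene symbols.

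Genes were filtered with filterByExpr (minimum count 10), scaled by TMM and tested with edgeR 4.0.16 (quasi-likelihood, R 4.3.3) at a false discovery rate of 0.05, over all genes, separately for the 18 samples and the 12 females. The sex and series comparisons used all 18 samples; the series coefficient was fitted beside the group. Log2 CPM had a prior count of 2. Depth was 73590509 to 125724156 counts; the limits at a count of 0 and the errors of ratios cover counting error only, while the intervals of fold changes cover the spread between samples. Correlations were tested by two-sided permutation (100000 resamples, exact within 9 or fewer samples; scipy 1.17.1) with Benjamini-Hochberg adjustment over the 10 pairs or 15 lists. DESeq2 1.42.0 was an alternative, beside other normalizations, filters, subsets and covariates. The fits were tested on simulated data.

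The 5 members and all gene lists were chosen with earlier results of these data known. Named genes are the 5 members; in each other list the called genes, otherwise up to 3 with the highest mean CPM; Mpo and Lcn2; and the 10 genes most like the globins. S100a8, S100a9, Mmp9, Csf3r, Mb and the low erythroid, globin, Hmox1 and sex check genes were named after their values were seen. Of the tissue, platelet and endothelial lists, not every gene under this rule is given.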

Additional observations from a re-analysis of the deposited data

Results flagged for a closer look

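Each of 42 sets of 6 samples (the 5 genes, their sum and ratios, and 4 neutrophil genes, by group) was searched for a sample whose gap to its nearest neighbour was more than 0.625 of the range of the group, which chance gives in about 1 in 20 sets. It was found in 5 sets. Male 4 stood apart in Hba-a1, at 109.8 CPM against 48.9 CPM in the next male. F2/metestrus 4 stood apart in Alas2, at 11.8 CPM against 6.85 CPM, and in Lcn2, at 4.39 CPM against 2.61 CPM. F1/proestrus 6 stood apart in the ratio of Hba-a1 to Hba-a2, at 1.80 against 1.55. F1/proestrus 5 stood apart in Mpo, at 0.587 CPM against 0.294 CPM.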

How the results depend on the processing

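No alternative called any of the 5 genes between the female groups or the sexes (110 and 150 values). Replicate numbers did not pair samples: the 18 same-numbered pairs had deviations correlated at -0.105 to 0.228, 9 of them over 0.1, as were 18 of 36 pairs of the same series with other numbers, and 1 of the 18 was over 0.1 once the series was removed. With the number as a replicate block, F2/metestrus against F1/proestrus gave -0.018 for Hba-a1 and -0.019 for Hbb-bs, with opposite sign to the fit without it, and 0 genes called; males against females gave 148 genes called in place of 49, none of the 5 among them, and -0.32 for Hbb-bt to -0.39 for Hba-a1; with the Hbb-bs covariate 60 genes were called in place of 41.

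In F2/metestrus against F1/proestrus the sign turned within the first library series for Hba-a1 (-0.070), Hba-a2 (-0.037) and Hbb-bs (-0.035), and within the second for Hbb-bt (0.0029) and Alas2 (0.10). Leaving out 1 sample at a time gave -0.19 to 0.11 for Hba-a1, -0.12 to 0.17 for Hba-a2, -0.12 to 0.12 for Hbb-bs, -0.17 to 0.078 for Hbb-bt and -0.24 to 0.094 for Alas2. DESeq2 called 2 genes. In males against females leaving out 1 sample gave -0.74 to -0.04 for Hba-a1, -0.69 to -0.04 for Hba-a2, -0.68 to 0.024 for Hbb-bs, -0.62 to 0.027 for Hbb-bt and -0.72 to 0.076 for Alas2, and 25 to 77 genes called. The genes called numbered 31 with at least 10 counts in every sample, 134 with the series as a covariate, 16 and 13 within the first and second series, 13 and 22 against F1/proestrus and F2/metestrus alone, and 166 by DESeq2.

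In the series comparison leaving out 1 sample gave -0.16 to 0.39 for Hbb-bs, -0.030 to 0.45 for Hbb-bt and -0.13 to 0.49 for Alas2. In females alone 3932 genes and 2 of the 5 were called, Hba-a1 (0.52) and Hba-a2 (0.46). With Hbb-bs as a covariate 116 genes were called with the series added, and 14 to 67 genes, 1 to 2 of them neutrophil genes, when 1 sample was left out; Mpo was then at 1.11 to 1.54.

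The 10 member correlations kept direction and call in every alternative run (r at least 0.752). For the list scores, r changed sign within the first series for other erythroid genes (-0.341), other globins (0.420), lymphocyte (0.345) and neuron (-0.465) lists, and for the lymphocyte list without males 4 and 6 (0.135). Females alone and males alone were added after seeing the data. Among females r changed sign for other erythroid genes (-0.214), other globins (0.132), haem synthesis (-0.0730), haem and iron handling (0.343), lymphocyte (0.196), endothelial (-0.123), meningeal fibroblast (0.258), Schwann cell (0.0398), neuron (-0.0978), dorsal horn (0.183) and microglia (0.217) lists, and among males for other globins (0.173). The endothelial call was lost without males 4 and 6 (0.477), within the first series (0.550) and in males alone (0.963). For each of these changes the cause was not tested. Depth limits the genes near the floor (other erythroid genes, embryonic globins), not the 5 genes.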
